A study of Mus musculus with 2 samples.

Results

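Open chromatin around 9 genes of pericytes, vascular smooth muscle and fibroblasts was described in mouse frontal cortex: Pdgfrb, Rgs5, Abcc9, Tbx18, Acta2, Col1a1, Col1a2, Dcn and Lum. The genes were taken by symbol from the GENCODE M21 annotation, all 9 were found, and they were set beside all 21938 protein-coding genes on chromosomes 1 to 19, X and Y. Each gene region was the gene body with 20 kb on each side, 697 kb over the 9 genes. Accessibility was read by DNase-seq, where DNase I digests the exposed parts of chromatin and sequencing maps the cuts. Per the labels, both libraries came from frontal cortex of female B6CASTF1/J mice aged 10 days, an F1 cross of B6 and CAST, and were named biological replicates 1 and 2 of 1 group. A mark "3x" in the labels is not explained there. No treatment or genotype was compared, so the values below are descriptions with no test, given for both replicates. The labels name no separate animals behind the replicates.

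Pericytes lie on the wall of capillaries, and smooth muscle cells ring the larger arteries. Endothelial PDGF-B draws pericytes to the vessel through the receptor encoded by Pdgfrb. Fibroblasts of the meninges and of the perivascular space lay down the collagen and small proteoglycans of that layer. In DNase-seq, a peak marks a stretch where DNA was open to the enzyme, typically a promoter or an enhancer. A footprint is a short stretch inside open DNA that was cut less than its surroundings. Cortex holds few of these cells beside neurons and glia, and in bulk tissue fewer cells of a type cannot be told apart from less open DNA per cell.

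The authors' longer peak list held 104654 peaks in replicate 1 and 81654 in replicate 2, and their footprint lists held 293484 and 187137. Read depth is unknown here. Most cortical neuron and astrocyte markers had an open promoter, while most microglial markers had none. For neurons this held for all 8 markers in replicate 1 and 7 in replicate 2, and for astrocytes for all 8 and 6. Microglial markers stood at 37.5% in each replicate, and endothelial markers at 75% and 50%. The background of all protein-coding genes was 66.1% and 63.3%. The peak and footprint lists were called for each replicate separately.

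The sequences of 5 open sites on which the description turns are given first, from GRCm38 (mm10) and 5′ to 3′ on the strand of the gene. Capitals mark bases under a footprint of either replicate. In the Rgs5, Tbx18 and Acta2 runs, all of them come from replicate 1 alone. The Rgs5 run ends just before the annotated start site (chr1:169655321-169655500, plus strand). The Tbx18 run is the peak just upstream of the start, seen in replicate 1 only (chr9:87731261-87731520, minus strand). The Acta2 run lies in an intron (chr19:34244161-34244360, minus strand). The Col1a2 runs lie beyond the end of the gene, the near one at chr6:4545841-4546020 and the far one at chr6:4557761-4557980, both on the plus strand.
Rgs5 start site: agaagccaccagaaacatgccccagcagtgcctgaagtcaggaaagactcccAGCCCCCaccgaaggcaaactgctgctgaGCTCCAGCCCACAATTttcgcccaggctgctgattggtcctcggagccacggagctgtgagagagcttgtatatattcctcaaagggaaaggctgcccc
Tbx18 upstream: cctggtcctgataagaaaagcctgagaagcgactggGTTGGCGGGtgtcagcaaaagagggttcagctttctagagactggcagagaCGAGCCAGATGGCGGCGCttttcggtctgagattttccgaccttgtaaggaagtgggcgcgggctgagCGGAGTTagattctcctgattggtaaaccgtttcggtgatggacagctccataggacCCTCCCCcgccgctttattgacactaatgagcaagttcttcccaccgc
Acta2 intron: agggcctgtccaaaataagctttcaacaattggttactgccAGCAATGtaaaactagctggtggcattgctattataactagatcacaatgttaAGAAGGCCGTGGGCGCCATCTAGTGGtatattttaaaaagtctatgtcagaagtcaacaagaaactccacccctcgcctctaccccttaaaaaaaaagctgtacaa
Col1a2 near downstream: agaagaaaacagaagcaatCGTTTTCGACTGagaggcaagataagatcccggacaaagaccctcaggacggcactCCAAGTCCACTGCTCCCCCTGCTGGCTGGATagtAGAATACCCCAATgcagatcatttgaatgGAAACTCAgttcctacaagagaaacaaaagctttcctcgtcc
Col1a2 far downstream: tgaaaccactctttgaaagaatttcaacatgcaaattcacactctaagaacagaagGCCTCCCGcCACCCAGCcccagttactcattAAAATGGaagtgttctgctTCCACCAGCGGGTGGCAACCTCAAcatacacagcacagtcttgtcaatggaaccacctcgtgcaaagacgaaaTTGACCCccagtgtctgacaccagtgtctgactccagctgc

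Promoters counted as open where a listed peak came within 500 bp of an annotated start of the gene. In replicate 1, 6 of the 9 promoters were open, against 66.1% of all protein-coding genes. In replicate 2, 3 of the 9 were open, against 63.3% of all. The 3 genes open in both replicates were Pdgfrb, Rgs5 and Col1a1, and 62.8% of all genes were open in both. Tbx18, Col1a2 and Dcn were open in replicate 1 and not in replicate 2, a pattern held by 3.28% of all genes (720 genes). Acta2, Abcc9 and Lum had no promoter peak in either replicate. Among the strongest 50% of peaks of each library, 4 of the 9 promoters were open in replicate 1 and 1 in replicate 2. With an equal number of peaks taken from each library (81654), 4 were open in replicate 1 and 3 in replicate 2. The share of all genes open at these cuts was not computed, so these counts have no background beside them.

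The open promoters carried weak signal beside those of other genes. The median peak signal of the open promoters, in the authors' units, was 0.727 in replicate 1 and 0.812 in replicate 2 for the 9 genes, against 3.13 and 3.73 for all open promoters. Pdgfrb, the PDGF receptor of mural cells, showed a peak signal of 0.844 and 0.812 in replicates 1 and 2, above only 13.9% and 7.83% of all open promoters. Rgs5, a regulator of G protein signalling that is abundant in pericytes, had 0.609 and 0.598, above 8.6% and 4.13%. These replicates lay close together for both genes. Col1a1, the alpha-1 chain of type I collagen, stood highest of the 9 with 2.85 and 3.70, near the middle of all open promoters (above 46.2% and 49.6%). The peak with these values was centred in an intron, 505 bp from an alternative start site annotated 1462 bp into the gene. It counted because part of it lay within 500 bp of that start. The peak nearest to that start had 0.88 in replicate 1 and 1.86 in replicate 2. At the annotated 5′ end of Col1a1 itself, the peak signal was 0.656 in replicate 1, and no peak was listed in replicate 2. Among the genes open in replicate 1 alone, Tbx18 had 0.958, above 16.3% of all open promoters. Col1a2 had 0.339, above 2.06%, and Dcn had 0.167, above 0.103%.

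**Figure D1:**
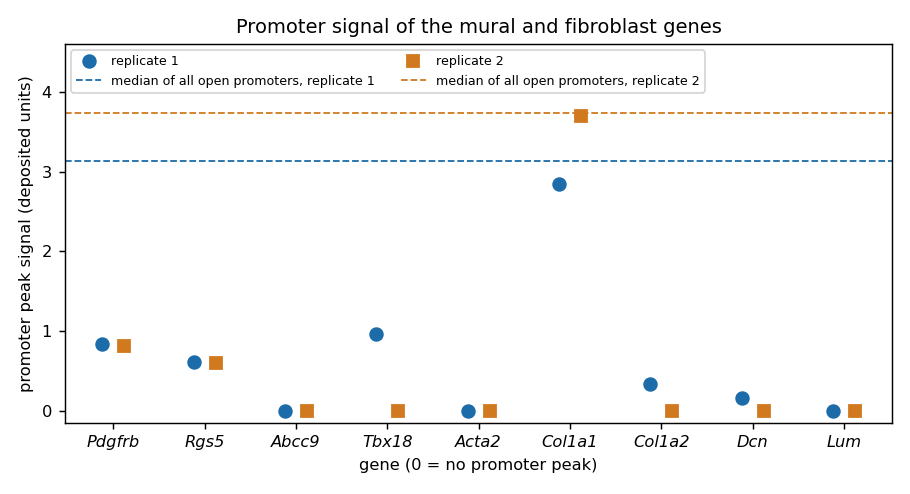
Highest signal of a peak within 500 bp of any start site of each gene (y axis, the authors' units), with circles for replicate 1, squares for replicate 2 and 0 where no peak was listed. Dashed lines are the medians of all open promoters (3.13 and 3.73); of the 9 genes, Col1a1 in replicate 2 came closest to its line.

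The authors' deposited table of false discovery rates for local cutting, which lists low rates only, showed the same split. It was made from the same libraries as the peaks, so it is not independent of the peak lists. Within 500 bp of the start sites, the table listed 1010 bases at Tbx18 in replicate 1 (lowest rate 4.88e-07) and 0 in replicate 2. It listed 158 bases at Col1a2 (lowest rate 0.0194) and 190 at Dcn (lowest rate 0.0104) in replicate 1, and 0 in replicate 2. Acta2, Abcc9 and Lum had 0 listed bases in both replicates. At Pdgfrb the table listed 228 bases in replicate 1 and 64 in replicate 2, and at Rgs5 308 and 280. Of all promoters with no peak, 2.42% in replicate 1 and 2.26% in replicate 2 had a listed base.

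Most of the 9 promoters were poor in CpG, and CpG-poor promoters were less often open in these libraries. The observed over expected CpG ratio at the gene start had a median of 0.294 over the 9 genes, against 0.586 over all. With all genes split into 5 equal groups by this ratio, Col1a2 (0.132) and Lum (0.171) fell in the lowest group, with 13.9% of all its genes open in replicate 1 and 11.9% in replicate 2. Acta2 (0.277), Dcn (0.275), Rgs5 (0.294), Pdgfrb (0.354) and Col1a1 (0.398) fell in the next group, where 39.3% and 34.3% were open. Of these 7 CpG-poor genes, Pdgfrb, Rgs5 and Col1a1 were open in both replicates. For Col1a1 the ratio belongs to the annotated 5′ end, where replicate 2 had no peak. In replicate 2 Col1a1 counted as open through alternative starts inside the gene. The CpG-richer genes were Abcc9 (0.517), in a group with 82.7% and 78.6% open, and Tbx18 (0.728), in a group with 96.4% and 94.3% open. Abcc9, with no promoter peak, and Tbx18 in replicate 2 thus lacked a peak that most genes of their group had. Whether CpG content accounts for the counts of open promoters was not tested.

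The regions held 45 peaks in replicate 1 and 24 in replicate 2. At least 1 distal peak, with its centre over 1000 bp from every annotated start site, lay in all 9 regions in replicate 1 and in 7 in replicate 2, against 73.3% and 67.4% of all genes. Rgs5 and Dcn had none in replicate 2. The median distal density was 3.67 peaks per 100 kb in replicate 1 and 2.10 in replicate 2, against 2.36 and 1.95 over all genes. It ranged among the 9 genes between 1.27 at Dcn and 6.26 at Pdgfrb in replicate 1. In replicate 2 it ranged between 0 at Rgs5 and Dcn and 5.01 at Pdgfrb. With the authors' shorter list the median over the 9 genes was 1.76 in replicate 1 and 1.46 in replicate 2. The median over all genes was not computed for that list.

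**Figure D2:**
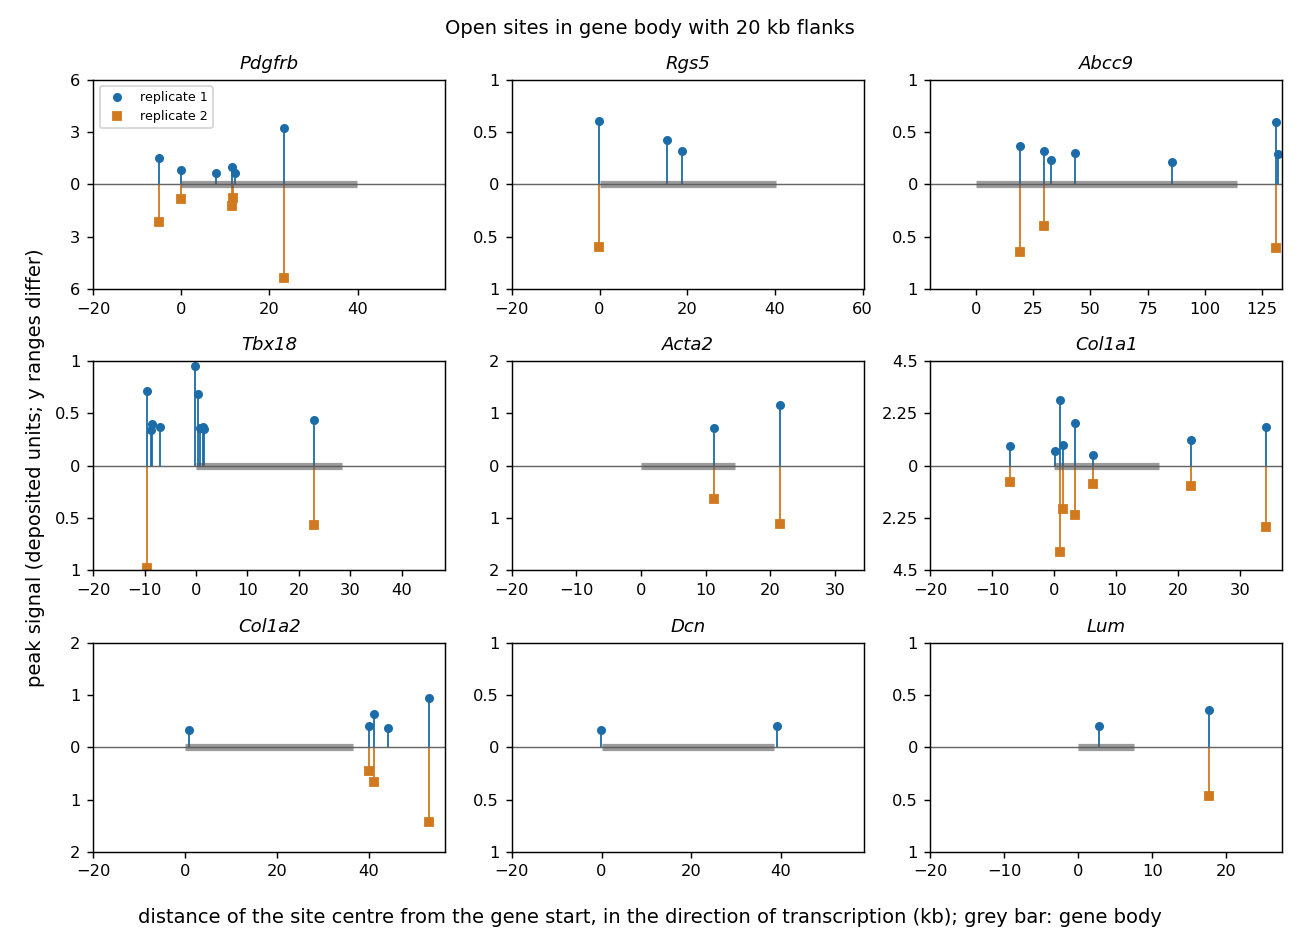
Open sites in the 9 gene regions by distance from the gene start in the direction of transcription (x axis, kb) and signal (y axis, the authors' units), with replicate 1 drawn upward and replicate 2 downward; the grey bar is the gene body and the y ranges differ between panels. Most of the Tbx18 sites appear in replicate 1 only, while the strong Pdgfrb intron site (3.21 and 5.39) and 7 of the 8 Col1a1 sites appear in both.

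Pdgfrb (chr18:61045150-61085061, plus strand) had the strongest site of all 9 regions. It lay in an intron 23.4 kb into the gene, with a peak signal of 3.21 and 5.39 in replicates 1 and 2. A site upstream of the gene at -5.13 kb, 3822 bp from the start of the homeobox gene Cdx1, had 1.53 and 2.18. A further intron site at 11.4 kb had 1.02 and 1.22. All 3 of these distal sites exceeded the Pdgfrb promoter in both replicates. The weaker intron sites did not recur. Those at 7.8 kb (0.677) and 12.1 kb (0.672) were listed in replicate 1 alone. The site at 11.8 kb (0.789) was the only one of the 9 regions that was listed in replicate 2 alone.

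Rgs5 (chr1:169655501-169695813, plus strand) had its start-site peak in both replicates and 2 intron sites in replicate 1 alone. The intron sites lay at 15.3 kb (0.427) and 18.8 kb (0.318). No listed base of the rate table covered either one in replicate 2.

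Abcc9 (chr6:142587862-142702315, minus strand) encodes the sulfonylurea receptor SUR2 of ATP-sensitive potassium channels. The pore of that channel in mural cells is encoded by Kcnj8, which lies downstream of Abcc9. The start site of Kcnj8 had a peak in both replicates, with 0.594 in replicate 1 and 0.609 in replicate 2, while the Abcc9 start had none. Within Abcc9, an exonic site at 19.4 kb had 0.365 and 0.643, and an intron site at 29.8 kb had 0.323 and 0.395. The intron sites at 32.8, 43.1 and 85.5 kb ranged between 0.214 and 0.302 in replicate 1 and were not listed in replicate 2. All sites within the gene body were below the median of their library's peaks, 0.604 in replicate 1 and 0.88 in replicate 2.

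Tbx18 (chr9:87702800-87731260, minus strand) encodes a T-box transcription factor of mural cells. It showed the widest gap between the replicates, with 10 sites in replicate 1 and 2 in replicate 2. The 5 peaks between -0.131 kb and 1.61 kb from the gene start had signals of 0.354 to 0.958 in replicate 1 and were all absent from the list of replicate 2. The strongest of them is printed above. The other shared and unshared sites lay upstream, near the unconfirmed transcript Gm37374, except an intron site at 22.9 kb. That intron site had 0.438 in replicate 1 and 0.564 in replicate 2. The upstream site at -9.58 kb had 0.719 and 0.981. The transcript D030062O11Rik overlaps the start of Tbx18 on the opposite strand, and DNase-seq does not tell which of the 2 genes an open site there belongs to.

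Acta2 (chr19:34241090-34255590, minus strand) encodes smooth muscle alpha-actin, the contractile actin of arteries. Its region held 2 sites, both shared. The intron site at 11.3 kb, printed above, had 0.719 in replicate 1 and 0.643 in replicate 2. The stronger site, 1.16 and 1.12, lay in an exon of the neighbouring gene Stambpl1. No peak and no listed base marked either start site of Acta2 in either replicate.

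Col1a1 (chr11:94936224-94953042, plus strand) had 8 sites, of which 7 were shared. Inside the gene, the sites at 0.957 kb (2.85 and 3.70), 1.33 kb (0.88 and 1.86), 3.25 kb (1.85 and 2.12) and 6.27 kb (0.448 and 0.789) all had the lower value in replicate 1, as did the median of all shared peaks. Outside it, the upstream site at -7.24 kb had 0.844 in replicate 1 and 0.699 in replicate 2. A site 34.2 kb from the start, with 1.66 and 2.63, lay at the start of Sgca, which encodes alpha-sarcoglycan. A site at 22.0 kb, with 1.11 and 0.88, lay 517 bp from the start of the small RNA Gm24877.

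Col1a2 (chr6:4504814-4541544, plus strand) encodes the partner chain alpha-2 of type I collagen, and its open DNA lay mostly past the end of the gene. The far downstream site at 53.1 kb had 0.943 in replicate 1 and 1.42 in replicate 2. The sites at 41.1 kb (0.641 and 0.665) and 40.0 kb (0.406 and 0.451) were also shared, and the site at 44.3 kb (0.365) was listed in replicate 1 alone. Apart from the promoter peak of replicate 1, no site lay in the body of Col1a2.

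Dcn and Lum, which encode the small proteoglycans decorin and lumican that bind collagen fibrils, lie near each other on chromosome 10 (chr10:97479609-97518143 and chr10:97565128-97572703, both plus strand). Dcn had 2 sites in replicate 1, at the start (0.167) and just past the end of the gene at 39.2 kb (0.203), and none in replicate 2. Lum had an intron site in replicate 1 (0.203 at 2.81 kb). A site 17.6 kb from its start was shared (0.359 and 0.462). All of these were below the median signal of their library.

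Of the 46 sites, 23 were found in both replicates, 22 in replicate 1 alone and 1 in replicate 2 alone. A share of 51.1% of the replicate 1 peaks overlapped a replicate 2 peak (23 of 45, 95% Wilson interval 37.0 to 65.0%, counting error only), against 64.8% of all replicate 1 peaks. In the other direction the share was 95.8% (23 of 24, interval 79.8 to 99.3%), against 82.9% of all replicate 2 peaks. Across the genome, sharing of replicate 1 peaks ran between 23.4% in the weakest and 98.8% in the strongest of 5 signal groups. At the rates of all peaks in the same signal groups, 26.5 of the 45 and 20.1 of the 24 would be shared. The peaks of replicate 1 found there alone had signals of 0.167 to 0.958 with a median of 0.357, against a median of 0.844 in replicate 1 for those found in both. None of the 22 sites of replicate 1 alone had a listed base in replicate 2 of the rate table, which is not independent of the peaks.

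At the 23 shared sites the replicates gave similar signals once the libraries were centred on all shared peaks. Over 61026 such peaks, the median log2 difference in signal, replicate 1 minus replicate 2, was -0.25 (SD 0.32). After this median was subtracted, the median over the 23 sites was -0.04 (SD 0.38). The lowest difference was -0.83 at the Col1a1 site at 1.33 kb, and the highest was 0.60 at the Col1a1 site at 22.0 kb. Of the 23 sites, 14 lay within 1 SD of all shared peaks, and 10 were above 0.

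**Figure D3:**
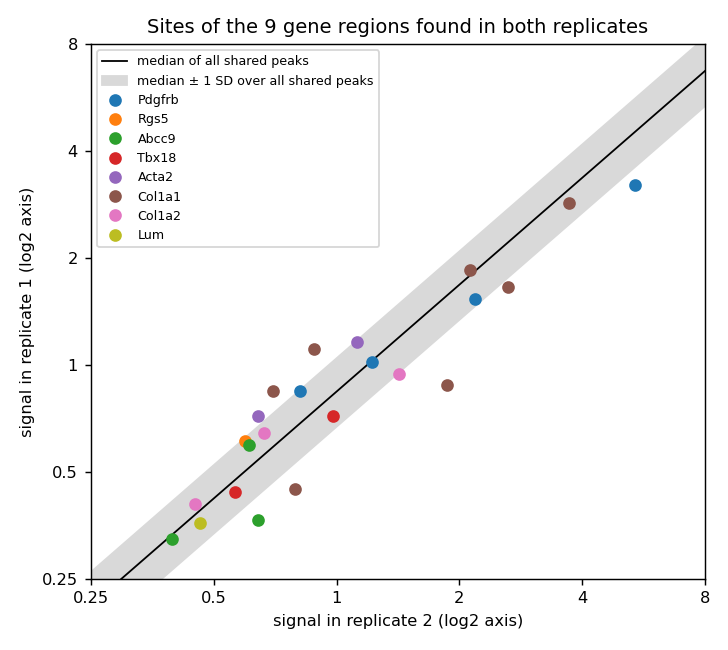
Signal of the 23 shared sites in replicate 2 (x axis) and replicate 1 (y axis), both on log2 axes, coloured by gene region. The line is the median log2 difference of all shared peaks (-0.25) and the band is 1 SD on each side (0.32); 14 of the 23 sites lie in the band.

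The regions held 97 footprints in replicate 1 and 47 in replicate 2. The median per region was 11 and 3, against 17 and 11 over all genes. Col1a1 had the most in both replicates, 29 and 18. Pdgfrb had 17 and 10, Tbx18 had 17 and 3, Col1a2 had 12 and 6, and Abcc9 had 11 and 6. Dcn had 1 and 0, and Lum had 1 in each. Of the footprints in the regions, 25.8% in replicate 1 and 63.8% in replicate 2 overlapped a footprint of the other replicate, against 37.3% and 60.3% of all footprints.

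The widest footprints often held a pattern like that of CTCF, a zinc finger protein that anchors chromatin loops. The pattern searched was CCNNNAGNNGG on both strands, within the footprint and 5 bp on each side. It was chosen after the wide footprints were read. Its shares in these footprints and sites are therefore not independent of that choice. Of the footprints of at least 20 bp, 11 of 19 in replicate 1 (57.9%) and 6 of 6 in replicate 2 held it, against 25.6% and 27.8% of all footprints of that width. Of the narrower ones, 2 of 78 (2.56%) and 2 of 41 (4.88%) held it, against 2.33% and 2.85% of all. The 49 bp footprints of replicate 2 at Pdgfrb, at -5.13 and 23.4 kb, both held the pattern and met footprints of 46 bp in replicate 1. Col1a1 carried such footprints at 0.959, 3.25 and 34.2 kb in both replicates. The wide capitals of the Acta2 intron site (26 bp), the near Col1a2 site (26 bp) and the far Col1a2 site (23 bp), as called in replicate 1, held it as well. Over the 46 sites, 21 held the pattern in their central 200 bp (45.7%), against 28.2% of all replicate 1 peaks and 29.4% of all replicate 2 peaks. A match is a run of letters and does not show that CTCF was bound.

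**Figure D4:**
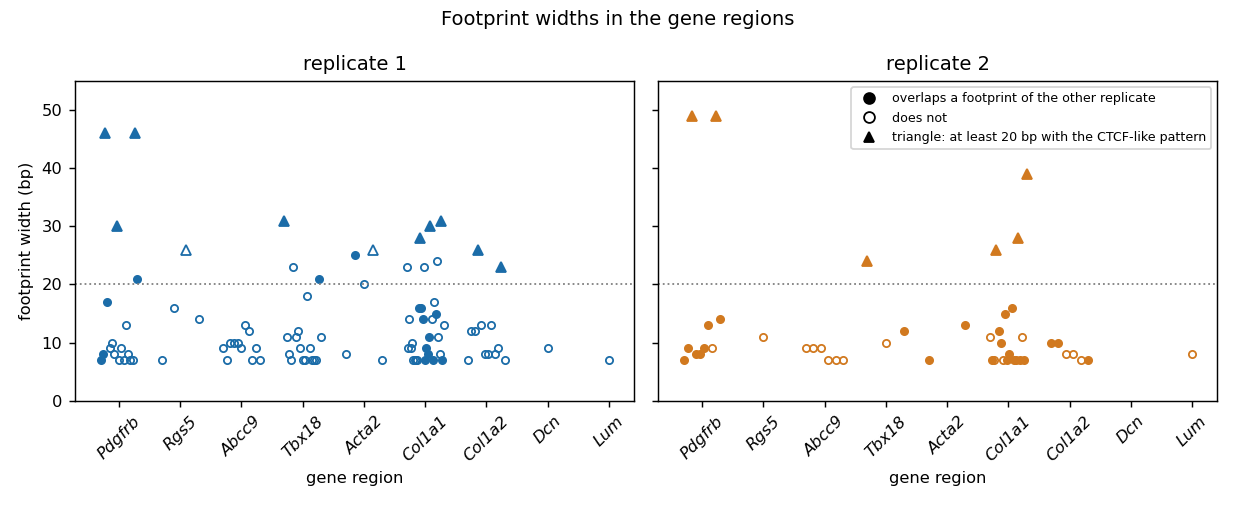
Width of each footprint (y axis, bp) by gene region (x axis) in replicate 1 and replicate 2, filled where it overlaps a footprint of the other replicate. Triangles are footprints of at least 20 bp (dotted line) that hold the CTCF-like pattern, 11 in replicate 1 and 6 in replicate 2.

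Exact motif matches were counted in the central 200 bp of the 46 sites, on both strands. The set held motifs of factors known from mural cells and fibroblasts, and also general ones such as SP/KLF and CTCF. The CArG box bound by SRF was found in 0 sites, against 0.841% and 0.798% of all peaks of replicates 1 and 2. The AP-1 motif TGANTCA was also found in 0 sites, against 6.21% and 6.32%. The TEAD motif GGAATG was found in 3 sites (6.52%, against 10.5% and 10.4%). The SMAD motif CAGACA was found in 8 (17.4%, against 18% and 17.6%). The RBPJ motif TGGGAA, through which Notch signals, was found in 12 (26.1%, against 20.1% and 19.9%). The shared Abcc9 intron site at 29.8 kb held 4 RBPJ matches, none under a footprint. The SP/KLF motif GGGCGG was found in 9 sites (19.6%, against 19.9% and 22%), and 2 of its matches in the upstream Col1a1 site lay under footprints of replicate 1. The motif AGGGGGC, the core of CTCF sites, was found in 9 sites (19.6%, against 9.11% and 9.66%), with 3 matches under a footprint. Of these sites, only Col1a1 at 6.27 kb, Col1a2 at 40.0 kb and Tbx18 at 22.9 kb were shared. The TATA box TATAAA was found in 5 sites (10.9%, against 4.93% and 5.1%). CCAAT was found in 12 (26.1%, against 22.6% and 22.5%) and ETS in 8 (17.4%, against 14.1% and 13.8%). The NFI half-site was found in 6 (13%, against 15.7% and 15.4%) and FOX in 1 (2.17%, against 2.06% and 1.98%).

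RefSeq promoter windows of GRCm38.p6, from 250 bases before to 50 after the start, were matched for 5 of the 9 genes: Rgs5, Col1a2, Abcc9, Tbx18 and Acta2. No window held an exact CArG box, which 1.63% of all windows held. CArG elements upstream of Acta2 are known sites of SRF in smooth muscle. With 1 of the middle 6 bases of the box allowed to be C or G, the Acta2 window held 2 such elements, as did 0.822% of all windows. Col1a2 and Tbx18 held 1 each, and 9.98% of all windows held at least 1. The Acta2 elements began at bases -84 and -34 from the RefSeq start. They are printed, in capitals with 10 flanking bases, because they lie in DNA with no peak in either replicate (chr19:34255438-34255467 and chr19:34255388-34255417, minus strand).
Acta2 at -84: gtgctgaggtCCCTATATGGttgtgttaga
Acta2 at -34: cgtctttgctCCTTGTTTGGgaagcgagtg

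Wider lists of mural and fibroblast genes also had fewer open promoters in replicate 2 than in replicate 1. This was not particular to them, since every other list except the microglial one showed a drop as well. The open share went from 75% to 50% in the endothelial list and from 100% to 75% in the astrocyte list. It went from 100% to 87.5% in the neuron list and from 100% to 95.2% in the signalling list. For all protein-coding genes the shares were 66.1% and 63.3%. Of 11 pericyte genes, replicate 1 had 8 open and replicate 2 had 4. By the mean promoter signal of both replicates, with 0 for no peak, which ranks the genes of every list here, the highest were Notch3, a receptor needed by mural cells, with 0.927 and 0.801, and Pdgfrb. In replicate 1 alone, Mcam (1.07) and Tbx18 (0.958) were higher than both, and neither had a peak in replicate 2. The pericyte markers Vtn and Higd1b had no promoter peak in either replicate, nor had Abcc9. Of 10 smooth muscle genes, 5 and 3 were open, led by the tropomyosin gene Tpm2 (3.37 and 3.98) and the myosin light chain kinase gene Mylk (1.36 and 0.936). Besides Acta2, the contractile genes Tagln, Cnn1, Myl9 and Des had no promoter peak. Of 12 fibroblast and meningeal genes, 8 and 4 were open, led by Col1a1 and by the PDGF receptor gene Pdgfra (2.30 and 2.73), which oligodendrocyte precursors also use. The collagen genes Col3a1 and Col6a1 had none, nor had Lum and the retinoid-binding protein gene Crabp2.

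The genes of the signalling list, which holds Pdgfrb itself, were nearly all open. Of 21 genes of PDGF, TGF-beta, SRF and Notch signalling, replicate 1 had all 21 open and replicate 2 had 20. Over all protein-coding genes the shares were 66.1% and 63.3%. The highest were Rbpj, the DNA-binding partner of Notch (9.46 and 12), and Mrtfa, a cofactor of SRF (9.32 and 9.68). The lowest was Myocd, the smooth muscle cofactor of SRF, with 0.448 in replicate 1 and no peak in replicate 2. Most of these genes are used by many cell types. Of other vascular and immune cells in the tissue, 6 of 8 endothelial genes had an open promoter in replicate 1 and 4 in replicate 2, led by the glucose transporter gene Slc2a1 (3.34 and 3.20) and the lipid transporter gene Mfsd2a (1.44 and 1.29). The endothelial receptor gene Tek and the cadherin gene Cdh5 had no promoter peak. Of 8 microglial genes, 3 were open in each replicate, among them Tmem119 (0.724 and 0.733), while Csf1r, P2ry12, Aif1, Trem2 and C1qa had no promoter peak. The highest astrocyte genes were Glul (5.69 and 6.56) and Sox9 (3.23 and 3.42), and the lowest was the water channel gene Aqp4 (0.406 in replicate 1 and none in replicate 2). By the mean, the highest neuron genes were Syt1 (3.63 and 3.74) and Camk2a (2.94 and 2.58). The 9 genes and these lists share members, and no list was tested against another.

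**Figure D5:**
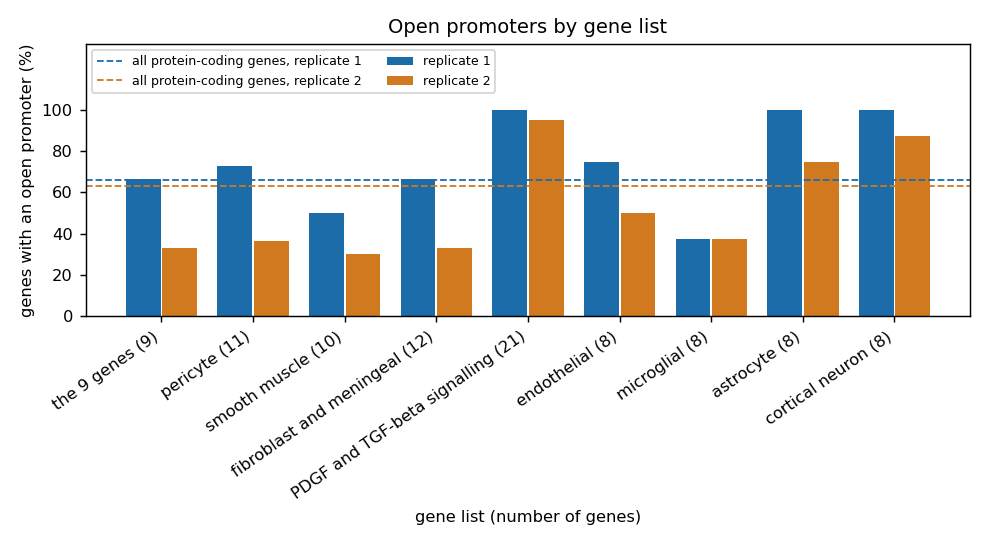
Percent of genes with an open promoter (y axis) in each gene list (x axis, number of genes in brackets) for replicate 1 and replicate 2. Dashed lines are the percentages over all protein-coding genes, 66.1 and 63.3; the 9 genes stand at 66.7 and 33.3, and the signalling list at 100 and 95.2.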

How the data were processed

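Open chromatin was measured by DNase-seq in 2 frontal cortex libraries. Per the file headers and texts deposited with them, the authors made peaks, footprints and false discovery rates per library from filtered alignments, in mm10 coordinates. The sources used here do not name the aligner, the callers or their thresholds. Each peak carries a signal set by the authors. Its scaling is not stated, and read depth is unknown, so no depth-based error was given. The deposited FDR (false discovery rate) values were computed by the authors from the filtered alignments of each library, with a caller not named. Here the listed bases were counted and the lowest rate was taken, and no p-value was computed from them. All deposited footprints carry the value 0.01, and only their positions were used.

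Peaks of the longer list of each library were set against GENCODE M21 start sites and genes with Python 3.11.15, numpy 2.4.6, pandas 2.3.3 and matplotlib 3.10.9. A peak lay in a region by its centre. Sites were peaks of either library, merged where they overlapped by at least 1 bp, and each took the distance of its centre from the gene start. The overlap code was tested on simulated data.

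The genes, lists and motifs were chosen with earlier results of these data known. The CpG groups, the 20 bp split and the CTCF-like and CArG-like patterns were added after seeing the values. Named by rule were all 9 genes, sites at or above the library's median signal or within 1 kb of a start, and of each list the 2 highest genes and the lowest, with ties. Some genes that this rule names are not reported here. Weaker sites were named after their values were seen. Alternatives covered windows, flanks, peak lists, overlap and each replicate left out.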

Additional observations from a re-analysis of the deposited data

How the results depend on the processing

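Of 64 alternatives to 13 values, 41 left the value near and 23 moved it. Counts were near within 1.5 times, shared percentages within their Wilson interval, distal densities within the SD of the 2 replicates, and the log2 difference within the SD over sites. Windows of 100 and 2000 bp left the counts of open promoters at 6 in replicate 1, 3 in replicate 2 and 3 in both. With 81654 peaks taken from each library, 4 were open in replicate 1, 3 in replicate 2 and 3 in both. The shorter list gave 4, 2 and 2 in the same order, and the annotated gene start alone gave 5, 2 and 2. With only peaks shared by the libraries, 3 were open in replicate 1. With the strongest 50% of peaks, 1 was open in replicate 2 and 1 in both. The share of all genes open was not computed under these settings. Without one replicate, the count open in the other ranged between 3 and 6. Changes of region or list moved the counts of peaks by construction. In replicates 1 and 2, peaks numbered 25 and 12 in the gene bodies alone, 133 and 81 with flanks of 100 kb, 22 and 14 in the shorter list, and 21 and 10 among the strongest 50%. Footprints numbered 49 and 27 in the gene bodies and 311 and 162 with flanks of 100 kb. The shared percentage in replicate 1 was 66.7 with 81654 peaks taken from each library. In replicate 2 it was 79.2 with a reciprocal overlap of 50% and 100 in the shorter list. The distal density in replicate 1 was 2.10 beyond 5000 bp from start sites, 4.96 in gene bodies, 2.33 with flanks of 100 kb and 1.76 in the shorter list. The causes of these shifts in percentage and density were not tested. No paired analysis was possible because the 2 libraries form 1 group. Read depth is unknown, so it could not be set beside the smaller number of peaks in replicate 2.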
